A study of Mus musculus with 9 samples.

Results

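The genes of cholesterol and fatty acid synthesis, of sterol sensing and of cholesterol efflux were followed in microglia, the macrophages that live in brain tissue. They were 34 genes chosen by symbol: 8 of the mevalonate and isoprenoid steps, 10 of the later sterol steps, 6 of sterol sensing and transcription, 5 of fatty acid synthesis and 5 of efflux, storage and the liver X receptors. All 34 were in the count table of 45664 gene rows, and all 34 passed the filter on low counts that left 13067 genes.

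The cells were live CD11b positive, CD45 low cells sorted from both visual cortices of adolescent male C57BL/6 mice, 1 mouse per library, and the mice came from 3 litters. Ethanol mice (4) had received 1.8 g per kg ethanol as a 20% solution under the skin in 2 injections a day, 2 h apart (3.6 g per kg a day), from postnatal day 4 (P4) to P9. Saline mice (5) had received the same volume of 0.9% saline on the same days, so that injection and handling were shared by both groups. Saline 1 to 5 were P36, P30, P35, P29 and P30 at collection and ethanol 1 to 4 were P35, P35, P30 and P30, and the mice of P35 or P36 (4) are called older and those of P29 or P30 (5) younger. The study asked whether early exposure to ethanol left a difference in the microglial transcriptome at this age.

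Cells make cholesterol from acetyl-CoA through mevalonate, farnesyl pyrophosphate, squalene and lanosterol, and the same acetyl-CoA feeds fatty acid synthesis. When membrane sterol falls, the escort protein SCAP carries the SREBP transcription factors to the Golgi, where they are cut and released to switch on the genes of synthesis, and the INSIG proteins hold SCAP back when sterol is plentiful. Oxidised sterols and sterol intermediates activate the liver X receptors, which switch on the exporters ABCA1 and ABCG1. In the brain, cholesterol does not come in from the blood, astrocytes and oligodendrocytes make most of it, and microglia take up and pass on what they clear from myelin and dying cells.

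The libraries held 12816198 to 28859244 counts. Summed over 7 genes, microglial markers stood at 58260 to 70550 CPM (each count scaled to a common library size with TMM factors). Markers of other cells were low: 8 neuronal genes summed to 75.4 to 292 CPM and 8 astrocyte genes to 62.7 to 189 CPM in 8 libraries, and to 3.64 and 3.31 CPM in saline 1. Oligodendrocyte markers (8 genes, Cldn11 at 0 throughout) summed to 198 to 263 CPM, border macrophage markers (6 genes) to 39.1 to 91.3 CPM, and endothelial and pericyte markers (6 genes, Rgs5 at 0 throughout) to 49.9 to 72.9 CPM. Besides saline 1, the library of ethanol 2 stood apart, with 703 of 8480 genes of at least 10 CPM more than 2-fold below the mean of the other 8 libraries, against 1 to 44 such genes in each of those 8. Both libraries were from older mice. Since each library is a bulk sample, fewer cells that express a gene and less RNA per cell cannot be told apart, and the p-values measure the spread between single mice of unrecorded litter.

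Levels of the 34 genes were uneven. Only levels per kb of the longest coding transcript can be set side by side between genes, and on this scale the exporter gene Abca1 stood at 93.3 CPM per kb (percentile 95.4 of 11185 genes with a coding length), followed by the desaturase gene Scd2 at 45.2, the liver X receptor gene Nr1h2 at 37.2 and the sterol isomerase gene Ebp at 36.1. At the other end, the elongase gene Elovl6 stood at 0.179, the sterol carrier gene Stard4 at 0.336, the isomerase gene Idi1 at 0.468 and the second liver X receptor gene Nr1h3 at 0.601. Of the 34 genes, 13 lay above the median gene and 21 below it. Means ranged from 0.468 to 13.1 CPM per kb over the mevalonate and isoprenoid steps and from 1.11 to 36.1 over the sterol steps.

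The promoters of 3 genes are shown, Hmgcs1 and Mvd of the mevalonate steps and Abca1 of the efflux group. CCAAT and GC box letters were frequent before the starts of the mevalonate, sterol-step and sterol sensing genes. A row of RefSeq promoters (build GRCm38.p6) was found for 27 of the 34 genes, and the 250 bases before each start were searched on both strands for a sterol response element (TCACNCCAC or GTGGNGTGA), a CCAAT box (CCAAT or ATTGG) and a GC box (GGGCGG or CCGCCC). No match of one motif overlapped another in the stretches printed. In the sequences below, 5′ to 3′ on the gene's strand and ending at the base before the start, capitals mark the matches:
Hmgcs1 (chr13:119690101-119690350, plus strand): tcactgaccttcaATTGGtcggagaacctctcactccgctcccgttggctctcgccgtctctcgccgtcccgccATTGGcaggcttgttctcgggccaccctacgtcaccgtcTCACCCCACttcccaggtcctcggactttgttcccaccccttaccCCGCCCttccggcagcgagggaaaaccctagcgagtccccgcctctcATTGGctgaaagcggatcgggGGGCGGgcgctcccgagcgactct
Mvd (chr8:122443423-122443672, minus strand): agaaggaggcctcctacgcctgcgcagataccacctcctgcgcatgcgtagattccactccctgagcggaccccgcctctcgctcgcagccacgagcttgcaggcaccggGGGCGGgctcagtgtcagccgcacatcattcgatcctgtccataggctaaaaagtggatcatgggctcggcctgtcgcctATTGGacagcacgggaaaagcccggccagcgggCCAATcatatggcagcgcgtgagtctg
Abca1 (chr4:53159896-53160145, minus strand): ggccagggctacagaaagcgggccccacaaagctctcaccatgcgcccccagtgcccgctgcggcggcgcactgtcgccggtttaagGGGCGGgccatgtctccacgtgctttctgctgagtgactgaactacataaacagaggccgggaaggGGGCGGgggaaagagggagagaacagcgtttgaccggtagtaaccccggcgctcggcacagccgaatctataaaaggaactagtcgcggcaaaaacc

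The Hmgcs1 promoter held the sterol response element letters 137 bases before the start, with 3 CCAAT boxes and 2 GC boxes. It was the 1 promoter of 27 with that element, against 1.22% of the promoters of 27025 genes. Mvd, whose enzyme makes isopentenyl pyrophosphate, held 2 CCAAT boxes and 1 GC box, and Abca1 held 2 GC boxes and no CCAAT box. CCAAT letters were found in 20 of the 27 (74.1%, against 37.5% of all promoters), GC box letters in 19 (70.4% against 35.4%) and both in 16 (59.3% against 13.8%). All 8 sterol-step genes with a promoter row had both letters, and of the 7 mevalonate and isoprenoid genes 6 had a CCAAT box and 5 a GC box. Of the 5 sterol sensing and transcription genes 4 had a CCAAT box and 5 a GC box. Of the 3 fatty acid synthesis genes 1 had a CCAAT box (Fasn) and 0 a GC box, and of the 4 genes of efflux, storage and liver X receptors 1 had a CCAAT box (Soat1) and 1 a GC box (Abca1). These are matches of letters, not measured binding sites. The shares of all promoters are over 27025 genes, expressed here or not, while all of the 27 passed the count filter. Shares over expressed genes alone are not given here, so the part of expression in these differences was not tested.

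After ethanol, the lipid genes showed no difference that passed the test. None of the 34 was called by edgeR's quasi-likelihood test, where 0.0% of the 13067 genes were called, and the smallest adjusted p among the 34 was 0.963. At an unadjusted p under 0.05 there were 0 of the 34, against 2.95% of all genes. DESeq2 and limma-voom also called 0 of the 34. In none of the 34 did the ethanol libraries lie wholly above the saline libraries (0.658% of all genes) or wholly below them (0.628%). The median log2 fold change of the 34 was -0.035 and 13 were above 0, beside a median of -0.00068 over all genes tested. For 28 of the 34 genes (79.2% of all genes) the 95% interval excluded differences beyond 2-fold, and for 22 (59.4% of all genes) those beyond 1.5-fold.

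Older and younger mice likewise showed no called difference. Age nearly coincided with a suffix in the library names, whose meaning was not given. Saline 2, saline 5, ethanol 3 and ethanol 4, all younger, carried 6. Saline 3, ethanol 1 and ethanol 2, all older, carried 5 with the younger saline 4, and saline 1 carried X. Age and this grouping of libraries can hardly be told apart, and the suffix was not used as a covariate for age. None of the 34 was called with ethanol as a covariate (0.0% of all genes, smallest adjusted p among the 34 0.973 by edgeR's quasi-likelihood test). None had an unadjusted p under 0.05, against 2.85% of all genes, and DESeq2 and limma-voom called 0 of the 34. In none did the older libraries lie wholly above (0.643% of all genes) or wholly below (0.597%) the younger ones. The median log2 fold change, older against younger, was -0.057 with 13 of 34 above 0, beside -0.020 over all genes. With a trend on transcript GC content and length removed from each library, that median was 0.07 with 23 above 0, and the median of all genes moved from -0.020 to 0.062. Without ethanol 2 it was 0.025 with 18 above 0. For 30 of the 34 genes (78.5% of all genes) the 95% interval excluded differences beyond 2-fold, and for 21 (59.9% of all genes) those beyond 1.5-fold.

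The ethanol difference was also compared between the cohorts, as an interaction term. None of the 34 was called (0.0% of all genes, smallest adjusted p among the 34 0.972 by edgeR's quasi-likelihood test), and 2 of the 34, Sc5d and Mvd, had an unadjusted p under 0.05, against 3.24% of all genes. DESeq2 and limma-voom called 0 of the 34 as well.

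**Figure D1:**
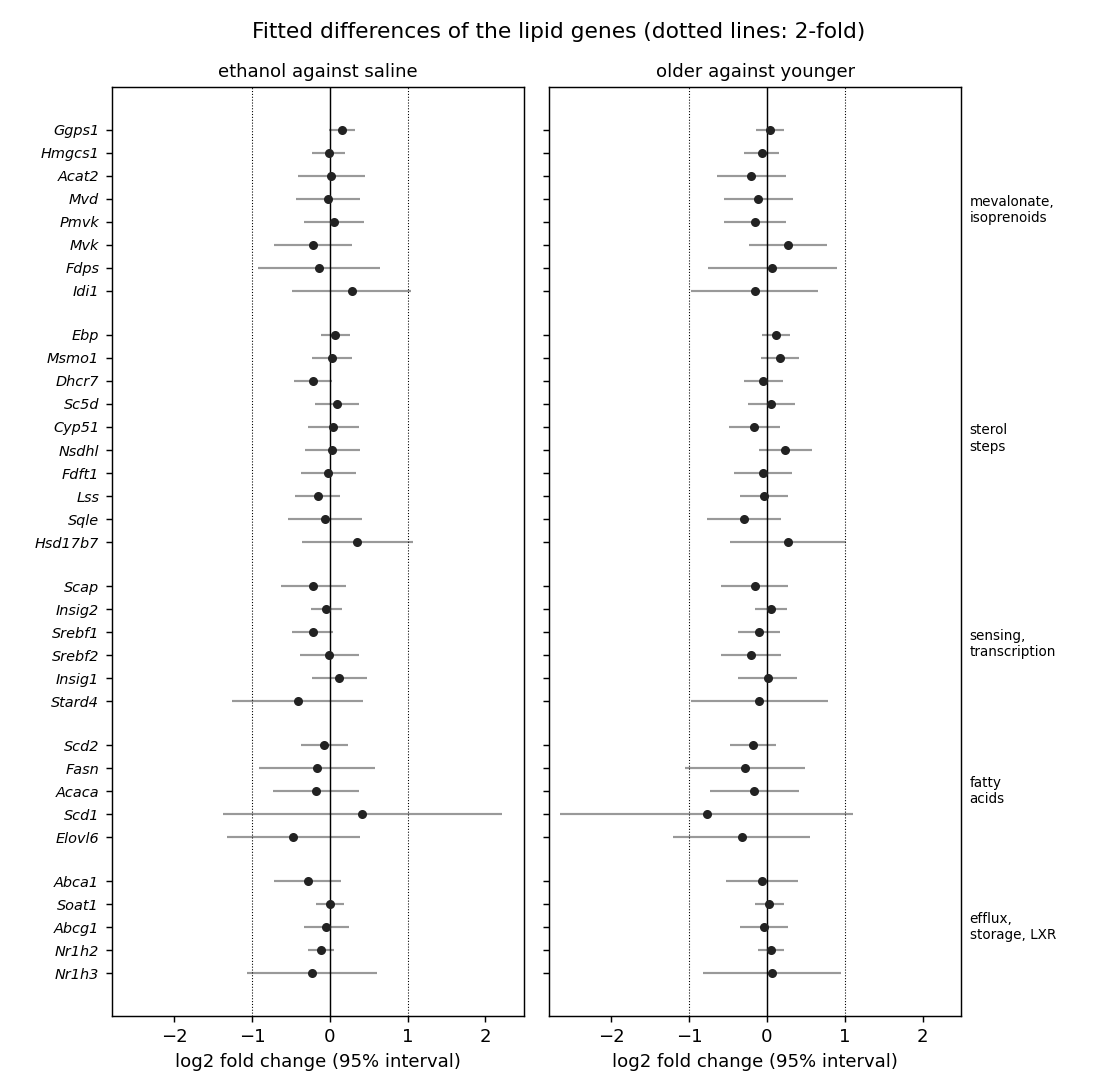
Fitted log2 fold change of each gene with its 95% interval (edgeR), ethanol against saline on the left and older against younger on the right; dotted lines mark 2-fold. Every interval spans 0 in both panels, and Scd1 has the widest.

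The mevalonate and isoprenoid genes, which build the activated isoprene units and join them, were measured at 1.42 to 47.8 CPM and differed little between the groups. For ethanol, 4 of the 8 had a fold change above 0 and 4 below, with a median log2 of 0.0026, and none passed the test in either comparison. With single libraries left out, that median ranged from -0.050 to 0.095. Ggps1, geranylgeranyl pyrophosphate synthase, makes the lipid that is attached to small GTPases (chr13:14050659-14063488, minus strand, GENCODE on GRCm38). It stood at 45.0, 45.0, 48.3, 45.5 and 43.8 CPM in saline 1 to 5 and at 48.0, 54.3, 48.3 and 52.4 CPM in ethanol 1 to 4. Ethanol 2 and 4 were the highest, and ethanol 1 (48.0) lay just under the highest saline mouse (48.3). The means were 45.5 ± 1.67 (SD, n = 5) and 50.7 ± 3.11 CPM (SD, n = 4), a log2 fold change of 0.16 ± 0.08 (SE), with the smallest unadjusted p of the 34 for ethanol (0.0652, edgeR). Under the 22 alternatives run for ethanol, its log2 fold change ranged from 0.12 to 0.19. Pseudogene copies cover 24.4% of its transcript at 95% identity or more.

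Mvk, mevalonate kinase, had the smallest age p of this group. It stood at 8.13 and 5.55 CPM in the older saline mice (1 and 3), 7.83, 4.98 and 6.54 CPM in the younger (2, 4 and 5), 6.03 and 7.34 CPM in the older ethanol mice and 3.67 and 5.73 CPM in the younger. Older mice averaged 6.76 ± 1.18 (SD, n = 4) and younger mice 5.75 ± 1.57 CPM (SD, n = 5), with much overlap. The log2 fold change was 0.27 ± 0.23 (SE, unadjusted p = 0.255, edgeR).

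Hmgcs1, the cytosolic HMG-CoA synthase whose product enters the mevalonate step, was steady. It stood at 40.8, 42.0, 45.4, 46.1 and 52.7 CPM in saline 1 to 5 and at 47.6, 42.4, 41.7 and 48.1 CPM in ethanol 1 to 4. The difference was -0.015 ± 0.097 (log2, SE), with a 95% interval of -0.23 to 0.20. Pmvk, phosphomevalonate kinase, averaged 6.90 ± 1.33 and 7.16 ± 0.942 CPM in saline and ethanol mice (SD, n = 5 and 4).

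Acat2, the cytosolic thiolase that joins acetyl-CoA units, and Mvd, mevalonate diphosphate decarboxylase, had their highest saline values in the same mice. Acat2 stood at 9.31, 9.14, 9.67, 15.2 and 15.2 CPM in saline 1 to 5 and at 10.4, 14.2, 11.7 and 11.1 CPM in ethanol 1 to 4. Mvd stood at 7.57, 8.86, 9.18, 12.7 and 13.3 CPM in saline 1 to 5 and at 11.0, 11.5, 8.77 and 9.29 CPM in ethanol 1 to 4. In both genes saline 4 and 5, both younger, lay above the other 3 saline mice. Among the ethanol mice the order was the other way for Mvd, with both older mice above both younger. The interaction of Mvd was 0.79 ± 0.33 (log2, SE, unadjusted p = 0.0378, edgeR), and with single libraries left out it ranged from 0.65 to 0.95 (unadjusted p from 0.00924 without saline 2 to 0.118 without saline 1). The copy Acat3 shares 65.6% of the Acat2 transcript at that identity but held 26 counts in all, against 2125 for Acat2.

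Fdps, farnesyl pyrophosphate synthase, and Idi1, isopentenyl pyrophosphate isomerase, were low, at 1.05 to 3.36 CPM (19 to 60 counts) and 0.775 to 2.04 CPM (14 to 43 counts). Their intervals for ethanol were wide, at -0.93 to 0.65 and -0.48 to 1.05 on the log2 scale. Processed pseudogenes cover 76.8% of the Fdps transcript, and 26.7% of its exons overlap another gene on the same strand, so its counts are uncertain.

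The sterol-step genes, which turn farnesyl units into squalene, lanosterol and then cholesterol, were all detected. For ethanol, 6 of the 10 were above 0 and 4 below, with a median log2 of 0.033; for age 5 were above and 5 below, with a median of 0.012, and none passed in either. Without ethanol 2 the ethanol tally turned, with 2 of the 10 above 0 and 8 below and a median of -0.069. Ebp, the isomerase that moves the sterol ring's double bond (chrX:8185329-8193512, minus strand), stood at 64.7, 56.6, 61.5, 64.4 and 60.4 CPM in saline 1 to 5 and at 66.9, 70.2, 64.1 and 57.0 CPM in ethanol 1 to 4. Its lowest values were both from younger mice and its highest from ethanol 2. The ethanol difference was 0.07 ± 0.085 (log2, SE).

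Dhcr7 encodes the reductase of the last step to cholesterol (chr7:143823145-143848410, plus strand). It stood at 35.9, 33.2, 33.2, 30.7 and 32.0 CPM in saline 1 to 5 and at 29.8, 22.6, 32.3 and 29.3 CPM in ethanol 1 to 4. Ethanol 1, 2 and 4 lay below every saline mouse, ethanol 2 farthest, and ethanol 3 lay inside the saline range. The means were 33.0 ± 1.94 (SD, n = 5) and 28.5 ± 4.13 CPM (SD, n = 4), a log2 fold change of -0.21 ± 0.11 (SE, unadjusted p = 0.0796, edgeR). Without ethanol 2 it was -0.12 (unadjusted p = 0.217). With single libraries left out it ranged from -0.279 to -0.118 (unadjusted p from 0.0375 to 0.217, edgeR).

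Msmo1, the methylsterol monooxygenase that begins removal of methyl groups from lanosterol's products, had the smallest age p of the 34. The older mice stood at 53.0 and 44.8 CPM (saline 1 and 3) and 43.0 and 60.1 CPM (ethanol 1 and 2), and the younger at 44.0, 47.0 and 44.9 CPM (saline 2, 4 and 5) and 44.0 and 43.4 CPM (ethanol 3 and 4). Saline 1 and ethanol 2 were the highest, while ethanol 1, also older, was the lowest of the 9 mice and saline 3 lay among the younger. The means were 50.2 ± 7.90 (SD, n = 4) and 44.7 ± 1.38 CPM (SD, n = 5), a log2 fold change of 0.17 ± 0.11 (SE, unadjusted p = 0.154, edgeR). Without both of those libraries it was -0.022. Nsdhl, a dehydrogenase of the same demethylation, showed the same 2 mice on top, at 21.5 and 21.4 CPM against 13.5 to 18.7 CPM in the other 7. Its age difference of 0.23 ± 0.15 (log2, SE) was 0.015 without them. With single libraries left out this difference ranged from 0.137 to 0.391 (unadjusted p from 0.0145 to 0.452, edgeR).

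Sc5d, the desaturase that acts just before Dhcr7, stood at 26.8, 26.1, 24.3, 31.2 and 30.3 CPM in saline 1 to 5 and at 29.2, 37.2, 25.3 and 26.7 CPM in ethanol 1 to 4. In saline mice the 2 highest were younger, and in ethanol mice the 2 highest were older. Its interaction was 0.55 ± 0.22 (log2, SE, unadjusted p = 0.0352, edgeR). With single libraries left out it ranged from 0.36 (without ethanol 2) to 0.74 (without ethanol 1).

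Sqle, squalene epoxidase, averaged 4.89 ± 1.00 CPM in older (SD, n = 4) and 5.98 ± 0.927 CPM in younger mice (SD, n = 5), with values from 3.49 to 7.19 CPM. Cyp51, lanosterol demethylase, stood at 18.8 to 30.8 CPM, Lss, lanosterol synthase, at 8.67 to 13.3 CPM, and Fdft1, squalene synthase, at 8.50 to 14.0 CPM. Fdft1 overlaps Ctsb, a highly expressed cathepsin gene on the opposite strand, over 18.3% of its exons, and whether strand was used in counting was not given. Hsd17b7, the ketosteroid reductase of the pathway, stood at 9.25 CPM in ethanol 2 and at 2.55 to 6.33 CPM in the other 8.

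All 6 genes of sterol sensing and transcription were detected, with Insig2 and Scap highest per kb and Stard4 lowest. Insig2 stood at 25.4 CPM per kb, Scap at 20.1, Srebf1 at 15.4, Srebf2 at 7.02, Insig1 at 3.37 and Stard4 at 0.336. For ethanol 5 of these 6 were below 0, with a median log2 of -0.13, and for age 4 were below 0, with a median of -0.10, and none passed either test. Without ethanol 2 the ethanol tally was 4 of 6 below 0 with a median of -0.026, and the age tally 3 of 6 with a median of 0.00073. Insig2 was the more abundant of the INSIG pair in every library. The ratio Insig2 to Insig1 per kb was 7.53 from the means and ranged from 5.30 in ethanol 4 to 10.5 in saline 3.

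Insig1, itself a classical SREBP target, stood at 10.6, 9.31, 7.32, 7.08 and 9.39 CPM in saline 1 to 5 and at 9.85, 8.91, 8.25 and 11.1 CPM in ethanol 1 to 4. Insig2, the INSIG gene less dependent on SREBP, stood at 64.5, 66.0, 76.7, 69.8 and 69.6 CPM in saline and at 71.4, 66.1, 72.9 and 59.0 CPM in ethanol mice. Groups overlapped for both, and ethanol 4 held the highest Insig1 and the lowest Insig2 value. The ethanol differences were 0.12 ± 0.16 and -0.042 ± 0.089 (log2, SE).

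Srebf1 encodes SREBP-1, which drives mainly fatty acid genes (chr11:60199089-60222581, minus strand). It stood at 80.1, 69.1, 54.6, 66.4 and 81.7 CPM in saline 1 to 5 and at 62.2, 55.1, 66.0 and 59.0 CPM in ethanol 1 to 4. Saline 1 and 5 were high and saline 3 was as low as the lowest ethanol mouse. The means were 70.4 ± 11.1 (SD, n = 5) and 60.6 ± 4.61 CPM (SD, n = 4), a log2 fold change of -0.22 ± 0.12 (SE, unadjusted p = 0.0949, edgeR). With the GC and length trend removed it was -0.076 (unadjusted p = 0.658). With single libraries left out it ranged from -0.296 to -0.158 (unadjusted p from 0.0151 to 0.224, edgeR).

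Srebf2 encodes SREBP-2, the main driver of cholesterol genes. The older mice stood at 39.1, 28.8, 41.4 and 22.7 CPM (saline 1 and 3, ethanol 1 and 2) and the younger at 33.0, 41.7, 35.8, 41.0 and 37.5 CPM (saline 2, 4 and 5, ethanol 3 and 4). The lowest values were from older mice, but the other older mice lay among the younger. The age difference was -0.20 ± 0.17 (log2, SE, unadjusted p = 0.275, edgeR), and without ethanol 2 it was -0.044. Per kb, Srebf1 stood 2.19-fold above Srebf2, and from 1.77-fold in ethanol 1 to 2.87-fold in ethanol 2.

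Scap (chr9:110333288-110384950, plus strand) stood at 93.3, 79.5, 91.2, 93.1 and 94.9 CPM in saline 1 to 5 and at 90.8, 43.9, 93.7 and 84.8 CPM in ethanol 1 to 4. In 8 mice it kept within 79.5 to 94.9 CPM, and ethanol 2 lay far below. The ethanol difference was -0.21 ± 0.19 (log2, SE) with all libraries and -0.014 without ethanol 2. Another gene on the opposite strand covers 13.2% of its exons. Stard4, which carries sterol between membranes, was counted only 10 to 47 times per library, at 0.794 to 2.38 CPM.

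With all libraries, the fatty acid synthesis genes varied most of the role groups between mice for their abundance. For ethanol 4 of the 5 were below 0, with a median log2 of -0.17, and for age all 5 were below 0, with a median of -0.28, and none passed either test. Without ethanol 2 the ethanol tally turned, with 4 of the 5 above 0 and a median of 0.049. The age values of Fasn and Acaca were then 0.031 and 0.082, so that 3 of the 5 were below 0, with a median of -0.076. The square root of the fitted dispersion is the variation between libraries beyond counting error. Among these 5 genes it was above the trend of genes of like abundance in 4. Acaca and Scd2 were barely above it, at 1.07 and 1.04 times the trend. Scd1 stood at 2.66, Fasn at 2.21 and Elovl6 at 0.766 times the trend. A value above the trend was found in 9 of all 34 genes, against 3783 of the 13067 genes tested. The square root was more than 1.5 times the trend in 2 of the 34, Scd1 and Fasn, against 8.06% of all genes. Without ethanol 2 the SD between mice went from 12.2 to 4.37 CPM for Fasn and from 1.81 to 1.06 CPM for Acaca. For Scd2 it went from 36.9 to 29.3 CPM, for Scd1 from 3.31 to 3.14 CPM and for Elovl6 from 0.385 to 0.386 CPM.

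**Figure D2:**
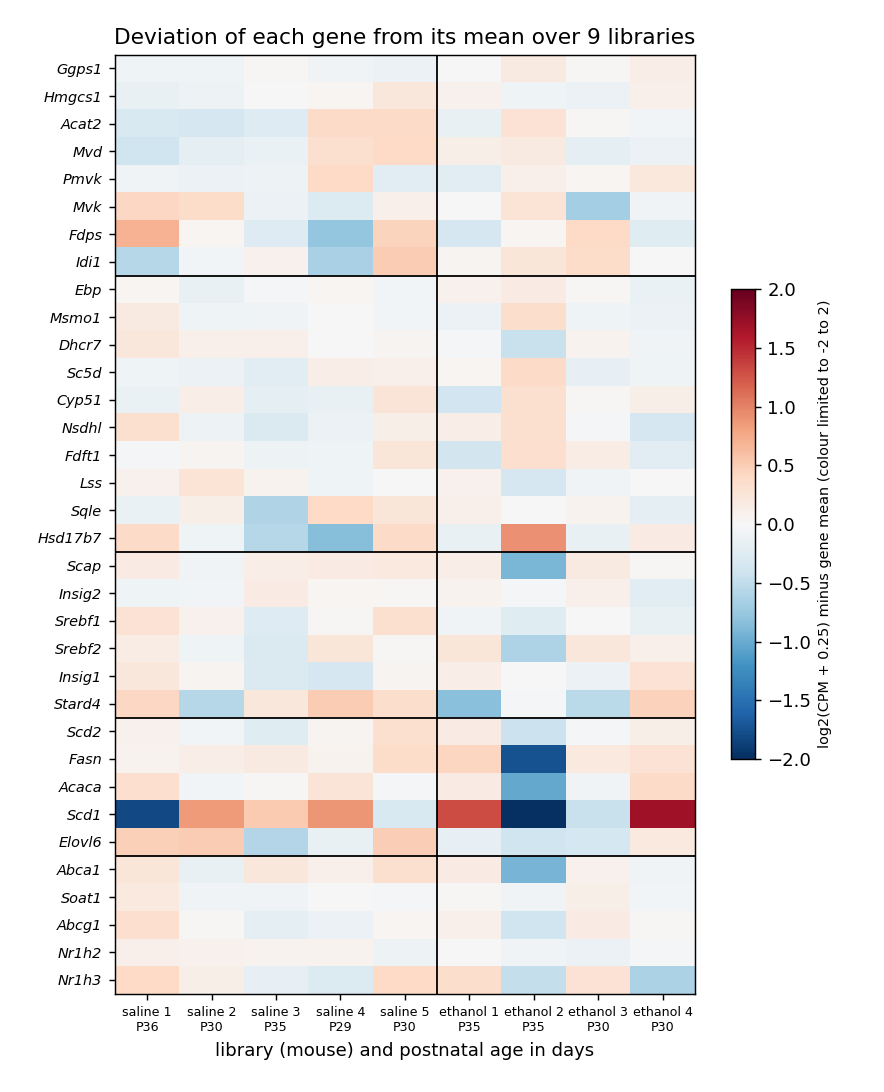
Deviation of log2(CPM + 0.25) of each gene (rows, by role) from its mean over the 9 libraries (columns, 5 saline mice left of the line and 4 ethanol mice right, with age); red is above and blue below the mean, with colour limited at 2 either way. Scd1 is the most uneven row, and the column of ethanol 2 is low for Fasn, Acaca, Scap, Srebf2 and Abca1.

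Scd1 and Scd2 encode stearoyl-CoA desaturases, which make monounsaturated fatty acids, and lie next to each other on chromosome 19 (chr19:44394455-44407879, minus strand, and chr19:44293674-44306864, plus strand). Scd2 stood at 258, 235, 206, 254 and 305 CPM in saline 1 to 5 and at 274, 181, 241 and 265 CPM in ethanol 1 to 4. Scd1 stood at 0.673, 5.59, 4.37, 5.70 and 2.37 CPM in saline 1 to 5 and at 7.70, 0.249, 2.12 and 10.2 CPM in ethanol 1 to 4. Scd2 was thus high in every mouse and Scd1 low and uneven, with saline 1 and ethanol 2 at the bottom and ethanol 4 at the top of a 40.9-fold range. Per kb, Scd2 stood 50.5-fold above Scd1 by the means, and from 23.1-fold in ethanol 4 to 643-fold in ethanol 2, where Scd1 rested on 6 counts. The copy Scd1 shares 11.4% of the Scd2 transcript at 95% identity or more.

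For ethanol, the differences of Scd1 and Scd2 were 0.42 ± 0.81 and -0.068 ± 0.14 (log2, SE). With single libraries left out, that of Scd1 ranged from -0.21 (without ethanol 4) to 0.82 (without ethanol 2) and that of Scd2 from -0.13 (without ethanol 1) to 0.044 (without ethanol 2). For age they were -0.77 ± 0.84 and -0.17 ± 0.13 (unadjusted p = 0.379 and unadjusted p = 0.221, edgeR). The age value of Scd1 turned to 0.12 without saline 1 and ethanol 2. The astrocyte and neuronal marker sums were 3.31 and 3.64 CPM in saline 1 and 89.3 and 75.4 CPM in ethanol 2. In ethanol 4, highest for Scd1, they were 188.5 and 291.8 CPM, the highest of all libraries. In saline 5, with Scd1 at 2.37 CPM, they were 164.8 and 240.4 CPM. The part of other cells' RNA in the Scd1 counts was not tested.

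Fasn, fatty acid synthase, makes palmitate from malonyl-CoA (chr11:120805846-120824547, minus strand). It stood at 41.7, 43.2, 44.8, 41.5 and 50.9 CPM in saline 1 to 5 and at 53.4, 11.7, 45.2 and 48.4 CPM in ethanol 1 to 4. Apart from ethanol 2 the mice lay between 41.5 and 53.4 CPM, with the other 3 ethanol mice at 45.2 to 53.4 CPM. The ethanol difference was -0.17 ± 0.34 (log2, SE, unadjusted p = 0.626, edgeR), and without ethanol 2 it was 0.14 (unadjusted p = 0.172). Acaca, acetyl-CoA carboxylase, which supplies malonyl-CoA, stood at 3.48 CPM in ethanol 2 and at 6.93 to 9.54 CPM in the other 8. A processed pseudogene, Gm5182, covers 64.3% of its transcript.

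Elovl6, which lengthens palmitate, stood at 1.51, 1.55, 0.589, 0.885 and 1.52 CPM in saline 1 to 5 and at 0.873, 0.705, 0.745 and 1.19 CPM in ethanol 1 to 4. Saline 1, 2 and 5 lay above all ethanol mice and saline 3 below all of them. The counts were 11 to 45 per library, and the difference was -0.47 ± 0.39 (log2, SE, unadjusted p = 0.255, edgeR).

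Abca1 was the most abundant of the 34 genes per kb, while Abcg1, at 23.2 CPM per kb, lay below Scd2, Nr1h2, Ebp and Insig2. Of the 5 genes of efflux, storage and the liver X receptors 4 had an ethanol fold change below 0, with a median log2 of -0.11, and 2 of 5 an age fold change below 0, with a median of 0.031, and none passed either test. With single libraries left out, the ethanol median ranged from -0.13 to -0.054 and the age median from -0.091 to 0.082. Abca1 hands cholesterol and phospholipid to lipid-poor apolipoproteins (chr4:53030787-53159895, minus strand). It stood at 1104, 841, 1087, 1004 and 1167 CPM in saline 1 to 5 and at 1047, 488, 989 and 893 CPM in ethanol 1 to 4. The 3 ethanol mice other than ethanol 2 lay within the saline range. The means were 1040.4 ± 125 (SD, n = 5) and 854 ± 252 CPM (SD, n = 4), a log2 fold change of -0.28 ± 0.20 (SE, unadjusted p = 0.175, edgeR). Without ethanol 2 it was -0.095 (unadjusted p = 0.355), and the age difference turned from -0.064 to 0.14.

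Abcg1 passes cholesterol to lipoproteins that already carry lipid. It stood at 169.8, 137, 118, 124 and 138 CPM in saline 1 to 5 and at 144, 102, 149.7 and 136 CPM in ethanol 1 to 4. Saline 1 was highest and ethanol 2 lowest, and the groups overlapped over the rest, with a difference of -0.043 ± 0.13 (log2, SE) that turned to 0.061 without ethanol 2 and 0.045 without saline 1. Per kb, Abca1 stood 4.02-fold above Abcg1, and from 2.71-fold in ethanol 2 to 5.25-fold in saline 3.

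Nr1h2 encodes liver X receptor beta and Nr1h3 liver X receptor alpha. Nr1h2 stood at 80.1, 79.0, 78.4, 77.6 and 69.4 CPM in saline 1 to 5 and at 73.5, 70.4, 68.1 and 73.0 CPM in ethanol 1 to 4. Saline 5 alone lay among the ethanol mice, the other 4 saline mice lay above all of them, and the difference was -0.11 ± 0.075 (log2, SE, unadjusted p = 0.168, edgeR). Nr1h3 stood at 1.57, 1.24, 0.982, 0.885 and 1.56 CPM in saline 1 to 5 and at 1.51, 0.746, 1.43 and 0.642 CPM in ethanol 1 to 4. Per kb the beta receptor stood 61.9-fold above the alpha receptor, and from 43.4-fold to 111-fold in single mice. Soat1, which esterifies cholesterol for storage, was among the steadiest genes, at 139 to 167 CPM, with an ethanol difference of 0.0043 ± 0.081 and a 95% interval of -0.17 to 0.18 (log2).

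**Figure D3:**
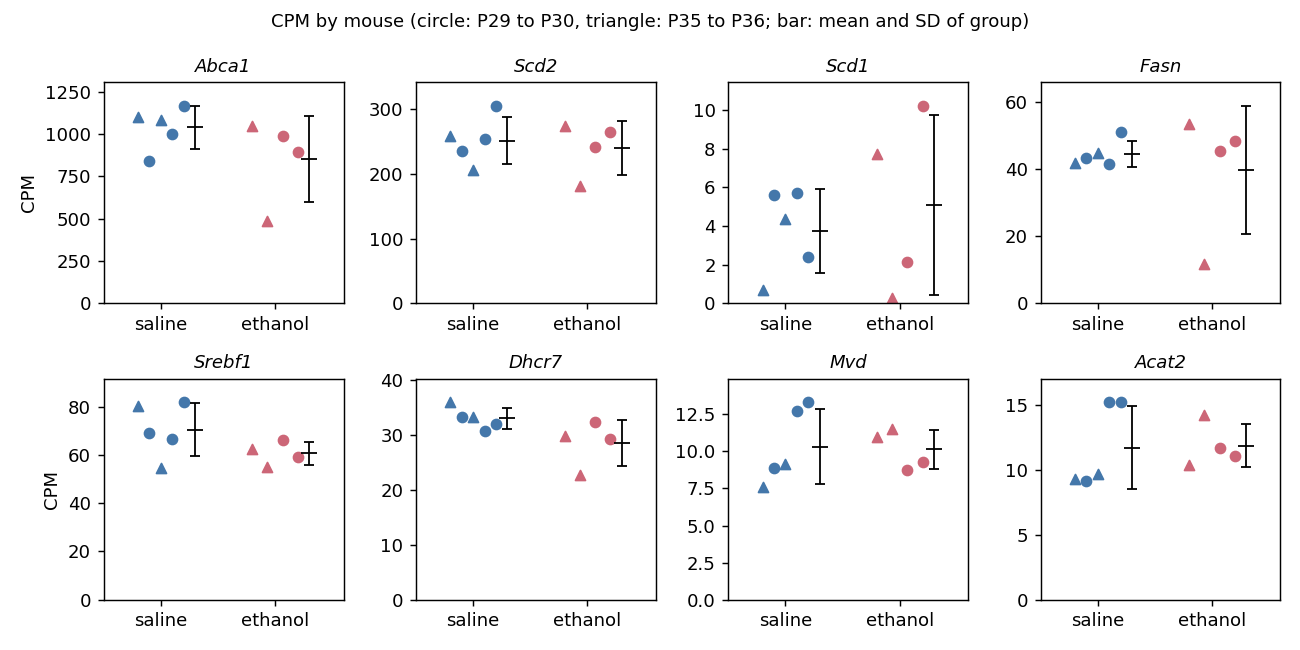
CPM of 8 genes in each mouse (circles P29 to P30, triangles P35 to P36; blue saline, red ethanol), with the group mean and SD (n = 5 and n = 4) as a bar. Abca1, Fasn and Scd1 have their lowest value in ethanol 2, and the saline and ethanol points overlap in each panel.

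Many of the low values came from ethanol 2, and the genes that stood apart there were counted. Of the 22 lipid genes of at least 10 CPM, 3 (Abca1, Fasn and Scap) lay more than 2-fold below the mean of the other 8 libraries, against 8.29% of the 8480 genes of that abundance, and 0 lay more than 2-fold above it, against 0.059%. Among all 34, 5 lay below (also Acaca and Scd1), against 11.7% of all genes tested, and Hsd17b7 above, against 1.0%. Abca1 was at 488 CPM there and at 841 to 1167 CPM elsewhere, and Fasn at 11.7 and at 41.5 to 53.4 CPM. Of the 34 genes, 10 had their lowest value in ethanol 2 and 7 their highest, among the latter Msmo1, Sc5d, Ebp, Ggps1 and Hsd17b7. Saline 1 and saline 5 each held the highest value of 8 genes, and saline 3 and ethanol 1 each the lowest of 5. The share of all genes with their lowest or highest value in ethanol 2 was not counted. The 5 low lipid genes had longer transcripts (median 9513 nucleotides) than the other 29 (3464), as did the 703 low genes of at least 10 CPM (6039, against 3569 over the 8480). Within the 5, Scap (4227) and Scd1 (4832) were shorter than Soat1 (8371), which lay at -0.083 (log2) in ethanol 2 against the other 8. Median GC content was 49.09% in the 5 and 48.71% in the other 29. It was 52.97% in the 703 low genes and 49.32% over the 8480. The part of transcript length or GC content in these values was not tested.

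**Figure D4:**
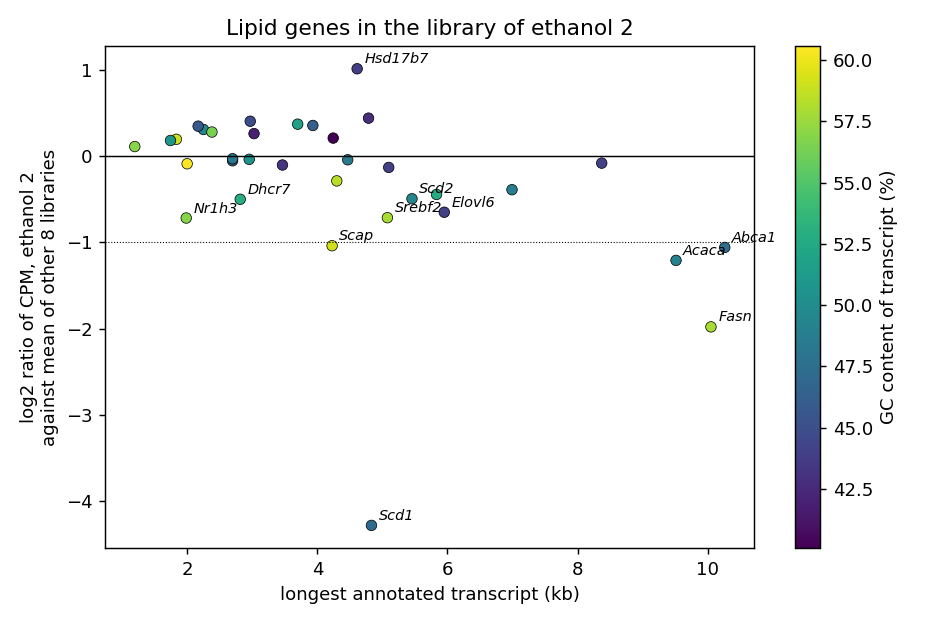
Log2 ratio of CPM in ethanol 2 to the mean of the other 8 libraries (vertical) against the longest annotated transcript in kb (horizontal) for the 34 genes, coloured by transcript GC content; the dotted line marks 2-fold below. Fasn, Abca1 and Acaca, the 3 longest, lie below the line, as do Scap and Scd1.

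Other genes of the same pathways were read from 3 lists of 37 genes, of which 33 passed the count filter, and none was called for ethanol or age. Of 6 further sterol and SREBP processing genes, 2 were above 0 and 4 below for ethanol (median log2 -0.065). The highest was Mbtps1, the protease that first cuts SREBP, at 186 CPM, and the smallest p was that of Erlin2 (0.156, edgeR), a membrane protein of the endoplasmic reticulum. Of 9 tested fatty acid genes, 6 were above 0 and 3 below (median 0.039), and the highest was Acly, which makes cytosolic acetyl-CoA from citrate, at 314 CPM. Elovl1, the elongase of very long chain fatty acids, had the smallest ethanol p of these lists. It stood at 133, 128, 128, 137 and 136 CPM in saline 1 to 5 and at 144, 169, 161 and 146 CPM in ethanol 1 to 4, without overlap (0.658% of all genes lay wholly above), with a log2 fold change of 0.22 ± 0.074 (SE, unadjusted p = 0.0112, adjusted p = 0.963, edgeR's quasi-likelihood test).

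Of 18 tested genes of liver X receptor action, uptake, storage and hydrolysis, 9 were above 0 and 9 below for ethanol (median 0.0034). The highest was Lrp1, a scavenger receptor for lipoproteins, at 534 CPM in ethanol 2 and 881 to 1458 CPM in the other 8. Cyp27a1, which makes an oxysterol from cholesterol, had the smallest ethanol p. It stood at 68.7 to 96.0 CPM in the saline mice and at 58.7, 63.8, 64.0 and 79.5 CPM in ethanol 1 to 4, a log2 fold change of -0.32 ± 0.13 (SE, unadjusted p = 0.0327, adjusted p = 0.963, edgeR's quasi-likelihood test). Ethanol 4 lay within the saline range and the other 3 ethanol mice below it. Lpl, lipoprotein lipase, had the smallest age p of the lists (unadjusted 0.0434, adjusted 0.973, edgeR's quasi-likelihood test), with a log2 fold change of -0.26 ± 0.11 (SE).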

How the data were processed

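Total RNA libraries of sorted microglia from 9 mice (5 saline, 4 ethanol) were read from 1 table that the authors deposited, which holds raw read counts by gene symbol without normalization. Per the submitters' processing notes, Trimmomatic 0.32, STAR 2.4.2a, HTSeq 0.6.1 and GRCm38.p4 were used. How strand and reads with several hits were handled, and with which annotation release, was not given in the sources used here.

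Genes were kept by filterByExpr (minimum count 10, minimum total 15), scaled with TMM factors and tested with edgeR's quasi-likelihood F test (edgeR 4.0.16, robust, R 4.3.3). P-values were adjusted over all 13067 genes by Benjamini-Hochberg at a threshold of 0.05. Models held ethanol, ethanol and age cohort (older from day 35), or both with their interaction. SEs and 95% intervals were derived from each fold change and F value. The square root of the common dispersion was 0.208, and depth was 12816198 to 28859244 counts. The procedure was tested on simulated data. Coordinates, transcript lengths and near-identical copies (blastn 2.17.0+, identity of at least 95%) came from a GENCODE annotation of GRCm38, and promoters from RefSeq.

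The 34 genes, their role groups and the related lists were chosen with earlier results of these data known. Named in full by rule were, in each role group, the highest gene and the smallest p for ethanol and for age, together with 5 pairs of related genes. Hmgcs1, Acat2, Mvd, Sc5d, Nsdhl, Fasn and Acaca were described in more detail after their values were seen.

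As alternatives, limma-voom with sample weights (limma 3.58.1), DESeq2 1.42.0, RLE size factors, a filter at 5 CPM in 4 or more libraries, and no filter were run, with removal of a trend on GC content and length (loess, span 0.3), each library left out, the replicate number as a block, age cohort or library-name suffix as a covariate, each cohort or treatment alone, age in days, no ethanol term, and, for levels, plain library sizes. Leaving out saline 1 and ethanol 2 together was added after the data were seen. No column was left out of the main fits. The run with library-name suffix as a covariate left out saline 1, the only library with its suffix.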

Additional observations from a re-analysis of the deposited data

Results flagged for a closer look

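In 5 of the 68 groups examined (34 genes, saline and ethanol mice apart), 1 mouse lay farther from the rest of its group than Dixon's 95% critical value allows. Chance alone flags about 1 in 20 such groups, here 3.4, and the cause was not tested in any of the 5.

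Msmo1, the methylsterol monooxygenase, was at 60.1 CPM in ethanol 2 and at 43.0 to 44.0 CPM in the other 3 ethanol mice. Pmvk, phosphomevalonate kinase, was at 9.24 CPM in saline 4 and at 5.88 to 6.62 CPM in the other 4 saline mice. Scap, the SREBP escort gene, was at 79.5 CPM in saline 2 against 91.2 to 94.9 CPM in the other saline mice. Nr1h2, liver X receptor beta, was at 69.4 CPM in saline 5 against 77.6 to 80.1 CPM. Soat1, the cholesterol esterifying enzyme, was at 167 CPM in saline 1 against 139 to 145 CPM.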

How the results depend on the processing

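No lipid gene was called for ethanol or for age under any alternative. For all genes, the ethanol comparison called 0 under each alternative, with 0 when any library was left out. The age comparison called 97 genes with no count filter and 3 without saline 1 and ethanol 2, none of them lipid genes. The interaction called 1 gene with DESeq2, 53 with no count filter and, when single libraries were left out, 0 to 848 genes and 0 to 3 lipid genes. The highest counts, out of 13343 genes tested and the 34 lipid genes, came without ethanol 1, when ethanol 2 is the only older ethanol mouse. Whether lipid genes were called more often than all genes was not tested. The lipid genes counted were then Fasn (-1.90), Scap (-1.04) and Abca1 (-1.04, all log2, edgeR). These values rest on 1 mouse, ethanol 2, whose group then has no spread of its own and is assumed to vary like the other groups. Without ethanol 2 the interaction called 0. The cause of the other moves was not tested. With the replicate number as a block, ethanol called 0 genes (240 at an unadjusted p under 0.05) and age 0 (801). No pairing by number was seen: same-numbered mice had correlations of -0.0542 to -0.0101, and 0 of 4 ethanol mice correlated best with their own number. Litter was not recorded, so a pairing by litter could not be checked. Over all alternatives the sign of a lipid gene's fold change turned in 105 of 743 values for ethanol, 92 of 708 for age and 71 of 539 for the interaction. In 0 of them were both values more than 1 SE of the main fit from 0. The SE of the alternative was not used, and values per day of age were compared by sign only. Mean levels moved by less than 1 SD between mice under every alternative for all 34 genes. Depth limits the lowest genes (Stard4, Idi1, Elovl6, Nr1h3, Fdps), with as few as 10 counts in a library.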
